A study of Mus musculus with 5 samples.

Results

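Gpam, Dgat2 and Gpat2 are the genes described here, 3 of the 64 genes of a targeted single-cell RNA panel measured in mouse hepatocytes. They were chosen by name, as panel genes of triglyceride synthesis. No rule on their measured values was used, but earlier results of these data were known. The hepatocytes came from livers of wild-type (WT) male C57BL/6J mice kept on a normal chow, lab diet #5053. All mice had been trained for 3 days with 16 h without food and 8 h with food each day, and on the last day were given food together with water sweetened with 20% sucrose. Fed hepatocytes (0 h) were taken 4 h into feeding, at clock hour 13. Food and sweetened water were then withdrawn, and fasted hepatocytes followed after 8, 16, 24 and 30 h, at clock hours 21, 5, 13 and 19. There was 1 library for each of the 5 time points, and neither the number nor the age of the mice behind it was stated in the labels. No difference below therefore has a replicate check or a test, and hours of fasting cannot be told apart from clock hour except between 0 h and 24 h.

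Triglycerides are built in the hepatocyte from glycerol-3-phosphate and activated fatty acids. Gpam encodes the mitochondrial glycerol-3-phosphate acyltransferase GPAT1, which attaches the first fatty acid and so commits it to glycerolipid synthesis in place of oxidation. Dgat2 encodes diacylglycerol O-acyltransferase 2, an enzyme of the endoplasmic reticulum and lipid droplet that attaches the last fatty acid, and is known for using fatty acids newly made in the liver. Gpat2 encodes a second mitochondrial enzyme of the GPAT1 type and is best known from the testis. In liver, Gpam is a known target of the insulin-responsive transcription factor SREBP-1c, the product of Srebf1, and its mRNA is known to be high after a carbohydrate meal and low in fasting.

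On the GRCm38 build with GENCODE M21 annotation, Gpam (ENSMUSG00000024978) spans chromosome 19, 55067268 to 55127238, on the minus strand, and its longest transcript has 22 exons. Dgat2 (ENSMUSG00000030747) spans chromosome 7, 99153658 to 99182719, on the minus strand, with 8 exons in its longest transcript. Gpat2 (ENSMUSG00000046338) spans chromosome 2, 127425199 to 127436092, on the plus strand, with 22 exons. No exon of another annotated gene overlaps any of them on either strand, so their UMIs are not shared with a neighbour in that annotation.

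The promoters of the acyltransferase pair, 1 highly counted and 1 nearly uncounted in these libraries, are shown because they hold the same kind of motif at a like place. Each runs from 250 bases before the transcription start to 50 bases after it, in the RefSeq table for GRCm38.p6, which held an entry for 2 of the 3 genes and not for Dgat2. The first lies at chr19:55127189-55127488 on the minus strand and the second at chr2:127424949-127425248 on the plus strand. Capitals mark CCAAT, the box bound by NF-Y, read here on the reverse strand as ATTGG.
Gpam: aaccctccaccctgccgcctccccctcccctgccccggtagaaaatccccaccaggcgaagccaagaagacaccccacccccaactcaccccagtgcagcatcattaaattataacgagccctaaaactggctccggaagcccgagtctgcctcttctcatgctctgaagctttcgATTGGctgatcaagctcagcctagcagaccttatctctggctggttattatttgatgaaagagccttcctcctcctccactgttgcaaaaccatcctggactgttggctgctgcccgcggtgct
Gpat2: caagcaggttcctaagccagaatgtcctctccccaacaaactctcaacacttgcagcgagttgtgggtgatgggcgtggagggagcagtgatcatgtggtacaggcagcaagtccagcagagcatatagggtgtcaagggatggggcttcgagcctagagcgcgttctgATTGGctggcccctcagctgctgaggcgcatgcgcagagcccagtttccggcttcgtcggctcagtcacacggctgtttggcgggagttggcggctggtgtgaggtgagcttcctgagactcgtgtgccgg
The box lies 74 bases before the start of Gpam and 81 bases before that of Gpat2. Searched on both strands, CCAAT occurs in 37.4% of all 32851 promoters of that length, so its presence in both is a description only. The E-box CACGTG, found in 7.15% of promoters, and the sterol regulatory element TCACNCCAC, found in 1.24%, have no match in either window. A second Gpam start in the table, at chr19:55099428-55099727, has no match to any of the 3 motifs.

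The libraries held 7208 to 12153 barcodes (47473 in all) and 3979629 to 11288725 panel UMIs. The 8 h library was the shallowest, with a median of 219 UMIs per barcode against 651 to 1202.5 in the other 4, and 47.8% of its barcodes had under 200 UMIs. Alb, the hepatocyte albumin gene, took 69.4% to 71.8% of the UMIs of each library. The panel holds 6 genes of other liver cells, namely Pdgfra and Pdgfrb of mesenchymal cells, Cdh5 of endothelium and Cd68, Mrc1 and Ptprc of immune cells. All 6 were detected in every library, and their summed level was 76.2, 220, 34.4, 43.2 and 29.7 UMIs per 1000000 panel UMIs (CPM) at 0, 8, 16, 24 and 30 h. Their part in the results below was not tested. Of 47235 distinct barcode sequences, 238 occurred in 2 libraries, and no ratio to 0 h changed by more than its counting interval without them. Because UMIs were summed over barcodes, fewer cells and less RNA per cell cannot be told apart in a library's level, and intervals are 95% intervals of counting error only.

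Gpam was highest in the fed library and lower in all 4 fasted ones. Its level was 7454 CPM (7392 to 7516), 2368 (2320 to 2416), 2517 (2478 to 2557), 1922 (1896 to 1949) and 1647 (1623 to 1670) at 0, 8, 16, 24 and 30 h. The fed value stood far above the other 4, whose intervals did not overlap one another either. The level was 3.15-fold lower at 8 h, and 2.96-fold, 3.88-fold and 4.53-fold at 16, 24 and 30 h. On the log2 scale the ratios to 0 h were -1.65 (-1.69 to -1.62), -1.57 (-1.59 to -1.54), -1.96 (-1.98 to -1.93) and -2.18 (-2.20 to -2.15). Most of the difference from the fed library was therefore already there in the first fasted library. Between neighbouring fasted libraries the log2 ratios were small: 0.088 (0.051 to 0.13) from 8 h to 16 h, -0.39 (-0.42 to -0.36) from 16 h to 24 h and -0.22 (-0.25 to -0.19) from 24 h to 30 h. The 3.88-fold lower level at 24 h was measured at the same clock hour as the fed level.

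Dgat2 was also highest in the fed library, with a smaller difference. Its level was 9754 CPM (9683 to 9825), 5587 (5514 to 5661), 4758 (4704 to 4813), 5218 (5175 to 5262) and 4269 (4231 to 4307) at 0, 8, 16, 24 and 30 h. It was 1.75-fold, 2.05-fold, 1.87-fold and 2.28-fold lower than at 0 h, in the order of time, or -0.80, -1.04, -0.90 and -1.19 on the log2 scale. The fasted libraries did not run in one direction: the step was -0.23 from 8 h to 16 h, 0.13 (0.11 to 0.15) from 16 h to 24 h and -0.29 from 24 h to 30 h. The difference at 16 h lay close to 2-fold and was under it when Alb was left out of the denominator (log2 -0.97) or with median-of-ratios scaling (-0.93).

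**Figure D1:**
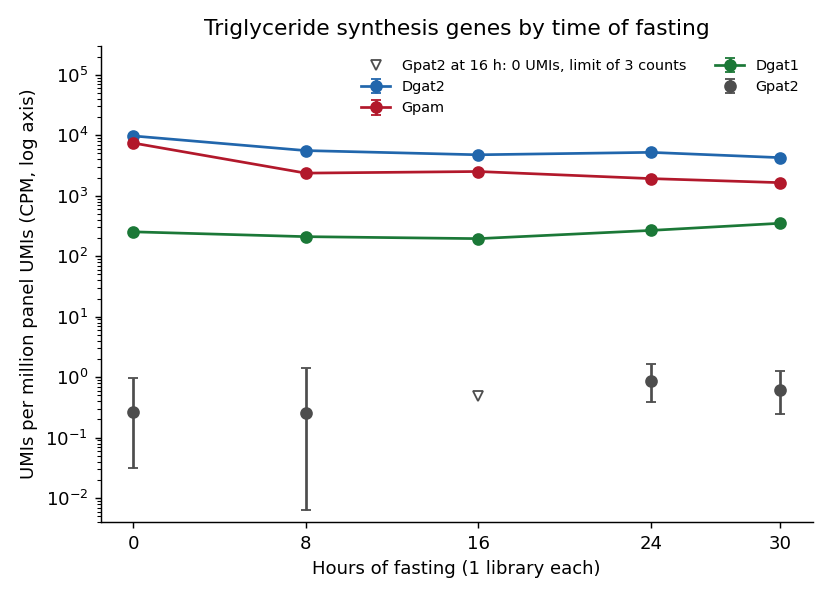
Level of Gpam, Dgat2, Dgat1 and Gpat2 in CPM (log axis) against hours of fasting, 1 library per point, with 95% Poisson intervals that are smaller than the symbols for all but Gpat2. Gpam and Dgat2 are highest at 0 h (7454 and 9754 CPM), Dgat1 is highest at 30 h (351 CPM), and Gpat2 stays under 1 CPM, with the triangle at 16 h marking the 0.487 CPM that 3 counts would give.

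These differences were read against the rest of the panel. Among the 56 genes with at least 100 UMIs in a pair of libraries, 12.5% were over 2-fold lower than at 0 h at 8 h, and 28.6%, 23.2% and 26.8% at 16, 24 and 30 h, and the median gene was within 0.15 of no change on the log2 scale. Gpam was past 2-fold lower at all 4 times, and stood 5th, 11th, 8th and 9th from the lowest of the 56 ratios. Dgat2 was past it at 16 h and 30 h, and stood 8th, 14th, 17th and 13th. Neither gene passed 2-fold between neighbouring fasted libraries, where 32.1% of genes did from 8 h to 16 h, 20.0% from 16 h to 24 h and 14.5% from 24 h to 30 h.

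Counted per barcode, the time course had another order, and depth per barcode differed between the libraries. Gpam had 7.81 UMIs per barcode at 0 h, and 0.775, 1.64, 2.34 and 1.84 at 8, 16, 24 and 30 h. Dgat2 had 10.2, 1.83, 3.10, 6.36 and 4.77 UMIs per barcode. Both were still highest at 0 h, but the lowest library became the one at 8 h, and the log2 ratio there was -3.33 for Gpam and -2.48 for Dgat2. This scaling moved the median of all panel genes by -1.68 at 8 h and -0.69 at 16 h, by 0.22 at 24 h and by 0.095 at 30 h, and the members' ratios are to be read relative to that shift.

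The ratio of Gpam to Dgat2 UMIs within a library needs no denominator, and only its change is read, since the genes may be captured with different efficiency. There were 0.764 Gpam UMIs for each Dgat2 UMI at 0 h, and 0.424, 0.529, 0.368 and 0.386 at 8, 16, 24 and 30 h. The fed library was thus the one in which the first enzyme's mRNA was highest relative to the last enzyme's. On the log2 scale the ratio was lower than at 0 h by -0.85 (-0.89 to -0.81), -0.53 (-0.56 to -0.50), -1.05 (-1.08 to -1.02) and -0.99 (-1.02 to -0.96) at 8, 16, 24 and 30 h. All 4 intervals lay below 0, and the change was smallest at 16 h. Within the 0 h and 8 h libraries the ratio was higher in deeper barcodes, and the part of depth in these changes was not tested.

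Gpat2 was nearly absent. It had 2, 1, 0, 9 and 7 UMIs at 0, 8, 16, 24 and 30 h, or 0.265, 0.251, 0, 0.863 and 0.620 CPM. The count of 0 at 16 h allows up to 0.487 CPM (3 counts). The log2 ratio of 24 h to 0 h had an interval from -0.57 to 4.95, so a difference between 24 h and 0 h was not detectable at this depth. No ratio was formed with the count of 0 at 16 h. Its 19 UMIs lay in 19 barcodes, 16 of which also held a Gpam UMI, and only 3 panel genes had fewer UMIs in all. Of all barcodes, 96.7%, 44.5%, 73.7%, 81.2% and 77.1% held a Gpam UMI at 0, 8, 16, 24 and 30 h. The overlap is therefore not read as a link between the 2 genes. Of the 19, 5 lay in the 180 barcodes with at least 3 UMIs of the genes of other liver cell types listed above, which together hold 0.142% of all panel UMIs. That count was made after the values were seen.

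Dgat1, which encodes the other diacylglycerol O-acyltransferase of the endoplasmic reticulum and is the only further gene of triglyceride synthesis on the panel, did not follow Dgat2. Its level was 253 CPM (242 to 265), 211, 195, 267 and 351 (340 to 362) at 0, 8, 16, 24 and 30 h. The log2 ratios to 0 h were -0.27, -0.37, 0.076 (-0.0081 to 0.16) and 0.47. It was lower than in the fed library at 8 h and 16 h and higher at 30 h, and never past 2-fold. In all, 4 of the 26 listed genes of triglyceride synthesis and storage were on the panel (Gpam, Dgat2, Dgat1 and Gpat2). The acylglycerolphosphate acyltransferases and lipins, which act between GPAT1 and DGAT2, were not on it.

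Fatty acid supply and its regulators were better covered. Of 14 listed genes of fatty acid synthesis, elongation and desaturation, 11 were on the panel, and 4, 5, 4 and 4 of them were over 2-fold lower than at 0 h at 8, 16, 24 and 30 h, beside 12.5%, 28.6%, 23.2% and 26.8% of all genes compared. Over 2-fold higher were 2, 1, 0 and 1 of the 11, beside 17.9%, 10.7%, 8.93% and 16.1% of all genes compared. The median log2 ratios of the 11 were -0.53, -0.18, 0.093 and -0.40, beside 0.047, -0.15, -0.12 and -0.071 over all genes compared. The genes that make fatty acids from citrate differed more than Gpam at every time after 8 h. The log2 ratio of Fasn, the fatty acid synthase, was -2.64, -3.87, -4.93 and -4.85. Acly, the ATP citrate lyase, stood at -1.77, -3.03, -3.35 and -4.04, and Acaca, the acetyl-CoA carboxylase, at -1.08, -2.46, -3.09 and -3.35. Elovl6, which elongates palmitate, stood at -2.21, -3.78, -4.51 and -5.17. Gpam at 8 h was thus lower relative to 0 h than Acaca was, and at the later times it was the least changed of the 5.

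Scd1, which desaturates fatty acids before they are esterified, did not share this pattern, with log2 ratios of 0.080, 0.29, 0.36 and -0.40. Elovl5, an elongase of polyunsaturated fatty acids, was higher in every fasted library, at 1.53, 0.79, 0.27 and 0.51. Of 12 listed regulators 4 were on the panel. Srebf1 stood at -4.77, -2.90, -3.92 and -4.26, and was past 2-fold lower at every time. Mlxipl, which encodes the carbohydrate-response factor ChREBP, stood at -0.34, -1.20, -1.62 and -1.71 and was past 2-fold lower from 16 h on. Nr1h3, the gene of the nuclear receptor LXR alpha, stayed between -0.31 and -0.049, and Usf1, the gene of an E-box binding factor, between -0.70 and 0.0026. Every one of these ratios shares the same fed library, so they are not independent of one another.

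**Figure D2:**
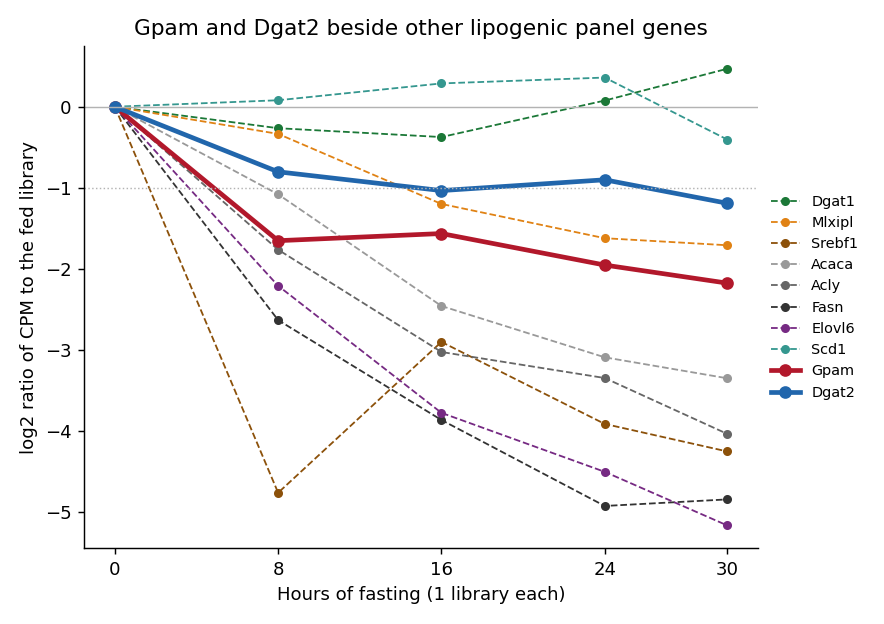
log2 ratio of CPM to the fed library against hours of fasting for Gpam and Dgat2 (thick lines) and 8 other panel genes of lipid synthesis and its regulation (dashed), 1 library per point. The dotted line marks a level 2-fold lower. Gpam lies between Dgat2 and the genes of fatty acid synthesis from 16 h on, at -1.57 to -2.18, while Fasn reaches -4.93 and Scd1 stays within 0.40 of 0.

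Likeness in time was measured as the root mean square difference of the 4 log2 ratios to 0 h, over the 51 genes that reached 100 UMIs in each library. Among the genes nearest to Gpam were Mlxipl (0.74) and Dgat2 (0.88), so even the nearest did not run close beside it. Dgat2 had a near match in Elovl1, an elongase of saturated fatty acids, at 0.15, followed by Actb, the beta-actin gene, at 0.31 and Mlxipl at 0.51. The log2 ratios of Elovl1 were -0.76, -1.02, -0.98 and -0.91. With 4 ratios to one shared library, this is a description.

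Position along the liver lobule was read from Cyp2e1, a cytochrome of the pericentral zone, and Cyp2f2, one of the periportal zone. The barcodes of each library were ranked by the ratio of the 2 genes' UMIs and cut into 5 equal bins, from 1 at the periportal end to 5 at the pericentral end. As a check that did not enter the ranking, pericentral Glul, the glutamine synthetase gene, was higher in bin 5 than in bin 1 in every library (log2 1.63 to 3.76 in CPM), and periportal Hsd17b13 was lower (-1.65 to -0.96). Bins are equal shares of barcodes in each library and are not matched positions. Alb is itself periportal: its share of UMIs went from 72.8% in bin 1 to 53.2% in bin 5 at 0 h, and from 75.0% to 49.9% at 30 h.

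In CPM, both genes were higher at the pericentral end of every library. At 0 h, Gpam stood at 6636, 6893, 6608, 7595 and 11198 CPM from bin 1 to bin 5. At 16 h it stood at 2081, 2155, 2164, 2655 and 4272, and at 30 h at 1442, 1509, 1478, 1713 and 2390. The level was thus nearly flat over the first 3 bins of these libraries and highest in the last. The log2 ratio of bin 5 to bin 1 was 0.75, 0.66, 1.04, 1.07 and 0.73 for Gpam at 0, 8, 16, 24 and 30 h. For Dgat2, which stood at 8597 CPM in bin 1 and 14369 in bin 5 at 0 h, it was 0.74, 0.77, 1.01, 0.86 and 0.73. Gpam was past 2-fold at 16 h and 24 h and Dgat2 at 16 h. Of all panel genes compared, 22.6% were over 2-fold higher at that end at 0 h, and 26.9%, 35.3%, 29.4% and 21.2% at 8, 16, 24 and 30 h. The median gene of the fed library had a ratio of 0.68, so being higher in CPM at this end, where Alb takes less of the count, was common to most of the panel.

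Without Alb in the denominator, both genes were close to level across the lobule. Gpam at 0 h stood at 24400, 24700, 23666, 25307 and 23925 UMIs per 1000000 of the other panel UMIs from bin 1 to bin 5. At 16 h it stood at 8626, 8749, 8624, 8542 and 8658, which is a highest bin only 1.02-fold above the lowest. At 24 h it stood at 6602, 6873, 6963, 7132 and 6579. The log2 ratio of bin 5 to bin 1 was -0.028 (-0.067 to 0.0099), -0.18 (-0.26 to -0.098), 0.0053, -0.0052 and -0.27 at 0, 8, 16, 24 and 30 h. On this scale the intervals at 8 h and 30 h lay below 0. The median gene compared stood at -0.17 and -0.46 in those libraries. With Cyp2e1 and Cyp2f2 also left out, Gpam stood at -0.047 (-0.13 to 0.036) and 0.22 (0.15 to 0.28) there. No zone direction of Gpam is therefore read in those libraries.

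Dgat2 on the same scale stood at 31610, 32211, 32267, 32752 and 30701 at 0 h and at 14613, 14980, 15344, 14343 and 12103 at 30 h. Its log2 ratio of bin 5 to bin 1 was -0.042, -0.076, -0.021 (-0.072 to 0.031), -0.21 and -0.27 at 0, 8, 16, 24 and 30 h. The highest bin was 1.04-fold to 1.27-fold above the lowest, widest at 30 h. Neither gene was past 2-fold in any library on this scale, where 26.4% of genes were past it in one or the other direction at 0 h, and 19.2%, 29.4%, 27.5% and 30.8% at 8, 16, 24 and 30 h. The zone direction of both genes therefore depends on the denominator, and with Cyp2e1 and Cyp2f2 also left out it was positive in 9 of the 10 cases, by 0.058 to 0.35, and -0.047 for Gpam at 8 h.

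**Figure D3:**
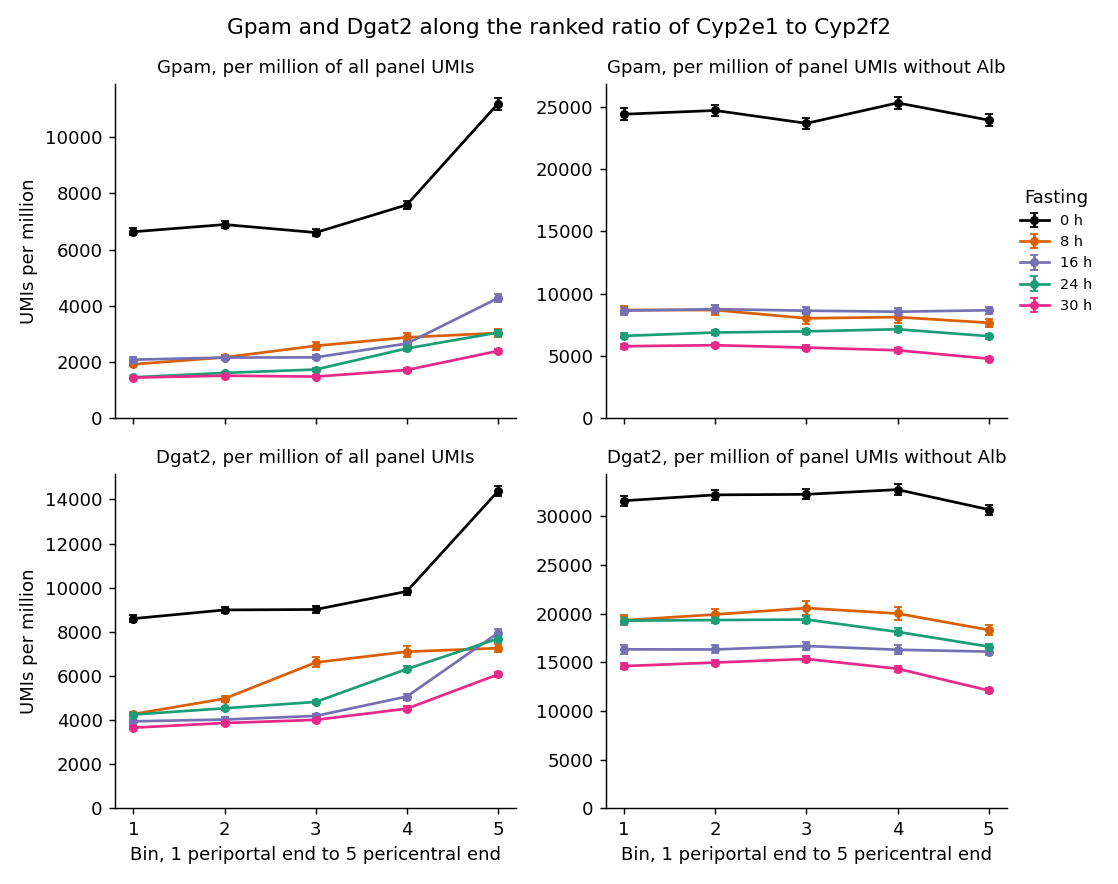
Level of Gpam (top) and Dgat2 (bottom) in 5 equal bins of barcodes from the periportal (1) to the pericentral end (5), per 1000000 of all panel UMIs (left) and of panel UMIs without Alb (right), 1 line per library with 95% Poisson intervals. On the left both genes are higher in bin 5 than in bin 1 in every library, and on the right the lines are close to level, with the fed library highest in every bin.

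Over the 25 bins of the 5 libraries, Gpam without Alb departed least from its library's level of the 51 genes compared, with a root mean square log2 departure of 0.063, and Dgat2 was 4th from the flattest at 0.073. This order belongs to that denominator, which still held Cyp2e1 and Cyp2f2, the genes that set the bins. With them also left out, the log2 ratio of bin 5 to bin 1 for Gpam was 0.12, -0.047, 0.26, 0.35 and 0.22 at 0, 8, 16, 24 and 30 h. Among the genes most like Gpam by bin were Dgat2 (root mean square difference 0.056) and Ywhaz, which encodes a 14-3-3 protein (0.063). Among those most like Dgat2 were Ywhaz (0.040) and Mlxipl (0.048). Bins share libraries and depth, so these values are descriptions.

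The difference from the fed library was present in every bin. Without Alb, Gpam was lower than in the same bin at 0 h by log2 -1.64 to -1.49 at 8 h, and in CPM by -1.89 to -1.36. In CPM the 5 bins at 16 h ranged from -1.68 to -1.39, those at 24 h from -2.19 to -1.61 and those at 30 h from -2.23 to -2.15. The Dgat2 bins in CPM ranged from -1.01 to -0.45 at 8 h and from -1.16 to -0.86 at 16 h. At 24 h they ranged from -1.02 to -0.64 and at 30 h from -1.24 to -1.12. Without Alb, the Gpam bins ranged from -1.57 to -1.46 at 16 h, -1.89 to -1.77 at 24 h and -2.33 to -2.06 at 30 h. The Dgat2 bins without Alb ranged from -0.74 to -0.65 at 8 h and -1.01 to -0.93 at 16 h. At 24 h they ranged from -0.89 to -0.71 and at 30 h from -1.34 to -1.07. For both genes the bins lay closer together than in CPM at 8, 16 and 24 h, and further apart at 30 h. No bin of either gene was as high in any fasted library as in the fed one.

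The Gpam to Dgat2 ratio, free of any denominator, was also close to level across the lobule in 3 of the 5 libraries. Its log2 value in bin 5 minus that in bin 1 was 0.014 (-0.037 to 0.065), 0.026 (-0.061 to 0.11) and -0.0028 (-0.079 to 0.074) at 0, 16 and 30 h. At 24 h there were 0.342 Gpam UMIs per Dgat2 UMI in bin 1, 0.355 in bin 2, 0.359 in bin 3, 0.393 in bin 4 and 0.396 in bin 5, a difference of 0.21 (0.14 to 0.28) on the log2 scale. At 8 h the ratio went the other way, from 0.449 in bin 1 to 0.418 in bin 5, with its lowest value of 0.390 in bin 3. That difference of -0.105 (-0.20 to -0.0070) was no longer there among barcodes with 200 or more UMIs (-0.0081) or with barcodes ranked after thinning to 200 UMIs (-0.020), so no direction is read at 8 h. The 8 h bins 3 and 4 were also the shallowest, with medians of 121 and 118 UMIs per barcode against 553 in bin 1.

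**Figure D4:**
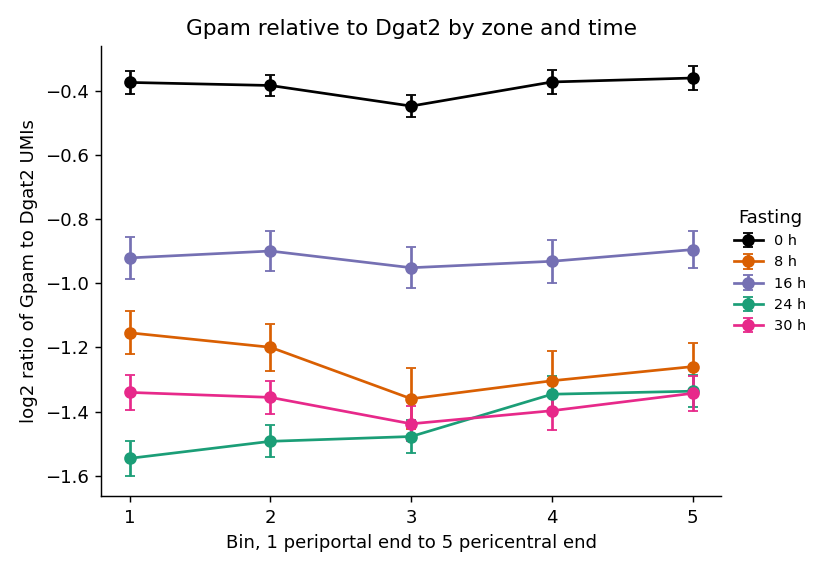
log2 ratio of Gpam to Dgat2 UMIs in each of 5 bins from the periportal (1) to the pericentral end (5), 1 line per library, with exact 95% binomial intervals. The fed library lies above all fasted ones in every bin, and the 24 h line is higher in bins 4 and 5 than in bins 1 to 3.

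Single barcodes were compared after each had been thinned at random to 200 panel UMIs, which left out 52, 5807, 522, 4 and 26 barcodes at 0, 8, 16, 24 and 30 h. A Gpam UMI was then found in 71.5% of barcodes at 0 h (70.4% to 72.5%), and 36.7%, 39.2%, 31.3% and 28.6% at 8, 16, 24 and 30 h (unthinned, 96.7%, 44.5%, 73.7%, 81.2% and 77.1%). A Dgat2 UMI was found in 84.8%, 62.4%, 60.6%, 64.7% and 57.3% (unthinned, 99.3%, 72.3%, 89.6%, 96.6% and 95.8%). For Gpam the libraries stood in the same order as in CPM. For Dgat2 the 24 h share lay above the 8 h share, against the order in CPM, so no order is read between those libraries. Both genes were found together in 61.4% of barcodes at 0 h, and 23.9%, 24.8%, 21.4% and 16.7% at 8, 16, 24 and 30 h. Of 25 fed barcodes with at least 3 UMIs of genes of other liver cell types, 72.0% (50.6% to 87.9%) held a Gpam UMI, at a median depth of 277 against 1037.5 in all fed barcodes. Before thinning there were 36 such fed barcodes, and Alb still took 57.9% of their UMIs, against 69.4% in the whole library. No cells known to lack Gpam were thus at hand to set a background, and these shares are not read as shares of expressing cells.

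The spread of Gpam from barcode to barcode was described on the same thinned counts. Of the fed barcodes at 200 UMIs, 28.5% held 0 Gpam UMIs, 30.5% held 1, 19.9% held 2 and 21.0% held 3 or more, with up to 24 in a barcode. The variance over the mean was 1.61, 1.14, 1.12, 1.10 and 1.05 at 0, 8, 16, 24 and 30 h. For Dgat2 it was 1.25 at 0 h and 1.09 to 1.16 in the fasted libraries. Both this ratio and the number of barcodes with many UMIs can rise with the mean alone, which for Gpam was 1.53 UMIs at 0 h and 0.346 to 0.527 in the fasted libraries. Dgat2 had a mean of 2.06 at 0 h. By this ratio Gpam stood 12th from the highest of 49 panel genes at 0 h, and 34th, 30th, 27th and 35th of 50 at 8, 16, 24 and 30 h. There were 162 fed barcodes (2.26%) with 6 or more Gpam UMIs of 200, against 3, 4, 1 and 0 at 8, 16, 24 and 30 h. For Dgat2, with its higher mean, there were 228 (3.19%) at 0 h, against 11, 21, 27 and 7. Since the means of the 2 genes differ, these counts do not show whether such fed barcodes were particular to Gpam.

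Fed barcodes with more Gpam UMIs had lower levels of glucose production genes, and also differed in zone markers. The grouping was made after the values were seen, and levels are UMIs per 1000000 of panel UMIs without Alb and Gpam. Pck1, which encodes the gluconeogenic enzyme phosphoenolpyruvate carboxykinase, stood at 37422 (36929 to 37920) in barcodes with 0 Gpam UMIs, 32931 with 1, 27697 with 2, 19067 with 3 to 5 and 10266 (9529 to 11044) with 6 or more. G6pc, which encodes the glucose-6-phosphatase that releases glucose, stood at 15298, 14176, 13140, 9956 and 6182. Both were thus lower in every step up in Gpam. Elovl6 went the other way, at 24269, 25172, 25866, 29926 and 40035. Dgat2 was also lower at each step but by far less, at 33597, 32799, 32618, 31899 and 30512. Its log2 ratio of the last group to the first was -0.14 (-0.20 to -0.074). The groups had like depth, with medians of 1007 to 1070 UMIs per barcode. They were formed on all panel UMIs, Alb included, and also differed in zone markers. The share of Alb went from 72.3% to 55.9%, and Cyp2e1 from 28658 to 71317. From barcodes with 0 to 5 Gpam UMIs to those with 6 or more, the log2 ratio was -1.55 for Pck1 and -1.11 for G6pc. For the zone markers it was 0.997 for Cyp2e1, -0.87 for Cyp2f2 and -0.036 for Glul. Pck1 and G6pc also varied along the lobule, with root mean square log2 departures by bin of 0.39 and 0.38 without Alb. The part of zone in their values was not tested, nor how many panel genes differed as much.

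Within bins 1 to 4 alone, where Cyp2e1 was 7806 in fed barcodes with 6 or more Gpam UMIs and 7577 in those with 0 to 5, the log2 ratio between these groups (89 against 5667 barcodes) was -1.49 for Pck1, -0.99 for G6pc, 0.65 for Elovl6 and -0.12 for Dgat2. These groups were not matched in zone, since periportal Cyp2f2 was 60441 against 75910 (log2 -0.33) and Alb took 63.2% against 72.0% of their UMIs, and the part of this in the Pck1 and G6pc values was not tested. In the fasted libraries Pck1 was also lower in barcodes with 3 or more Gpam UMIs than in those with 0, by log2 -0.26 (-0.33 to -0.20), -0.46 (-0.50 to -0.42), -0.40 (-0.45 to -0.35) and -0.21 (-0.25 to -0.16) at 8, 16, 24 and 30 h. In the fed library the same contrast gave -1.06 (-1.10 to -1.03). Those fasted groups with 3 or more held 135, 201, 103 and 72 barcodes, and Cyp2e1 was higher in them by log2 0.36, 1.45, 1.04 and 0.94. Within bins 1 to 4 the Pck1 contrast was -0.93 at 0 h and only -0.24, -0.084 and -0.17 at 8, 16 and 24 h, with 102, 87 and 58 barcodes, and at 30 h under 50 barcodes were left, too few for a value. Zone markers still differed within those bins: Cyp2e1 by 0.0092, 0.36, 0.45 and 0.75 and Cyp2f2 by -0.25, -0.59, -0.092 and -0.33 at 0, 8, 16 and 24 h. All of these barcodes come from 1 library per time, so they are no replicates, and the part of doublets and of free RNA was not tested.

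**Figure D5:**
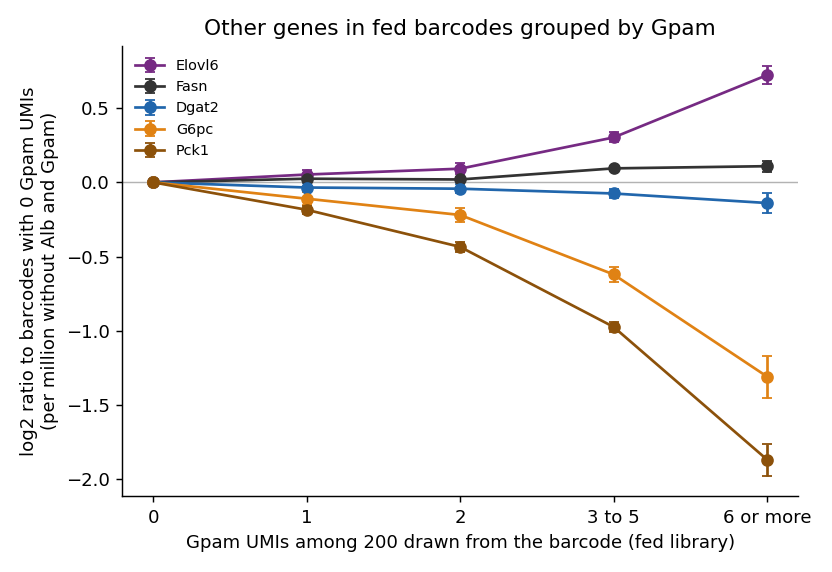
log2 ratio of the level of 5 genes to that in barcodes with 0 Gpam UMIs, for fed barcodes grouped by Gpam UMIs among 200 drawn (x axis), per 1000000 of panel UMIs without Alb and Gpam, with exact 95% binomial intervals. Pck1 and G6pc are lower at each step, to -1.87 and -1.31, Elovl6 is higher, to 0.72, and Dgat2 stays within 0.14 of 0.

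Within a library, Gpam and Dgat2 counts were at most weakly related from barcode to barcode. Without Alb, Dgat2 stood at 33388 per 1000000 in fed barcodes with 0 Gpam UMIs, 32909 in those with 1 and 31259 in those with 2 or more. Spearman's rho between the thinned levels without Alb lay between -0.016 and 0.0076 over the 5 libraries (6346 to 10068 barcodes each). With Alb kept it was 0.093, 0.052, 0.073, 0.072 and 0.024 at 0, 8, 16, 24 and 30 h, so its sign depended on the denominator. Counts this sparse limit what a correlation can show, so this is given as a description.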

How the data were processed

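Hepatocytes from 5 time points were profiled with the 10x Genomics Chromium 3' chemistry, version 3, and each library was enriched for a gene panel by hybridization, per the labels' protocols. The deposited values are raw UMI counts in 1 matrix, with 64 genes and 47473 barcodes; the authors added a table giving each barcode's library. Cell Ranger 6.0.1 and the mm10 build are named in the submitters' processing notes; the annotation and the calling of cells are not given in the sources used here.

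No barcode was filtered out, and no doublet caller was run on so small a panel. Samples were grouped by the labels' time points. UMIs were summed per library or zone bin and divided by summed panel UMIs (CPM, per 1000000). Alb dominates that denominator, so levels without Alb are given beside it. Levels have exact Poisson intervals, log2 ratios exact conditional binomial ones, differences of log2 ratios normal ones from the 4 counts, and shares Clopper-Pearson ones, all at 95% and for counting error only. Zone bins ranked barcodes by log2 of (Cyp2e1 + 0.5) over (Cyp2f2 + 0.5), ties broken with seed 1. A gene counted as past 2-fold where the 2 sums held at least 100 UMIs. Panel totals ran from 3979629 to 11288725 UMIs, and the spread between mice is unknown.

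The members, lists and rules were chosen with earlier results of these data known. Besides the members, genes are named as the 3 most like Gpam or Dgat2 in time and by bin, as panel genes of the pathway lists, or as zone markers; genes of the Gpam groups of fed barcodes were named after their values were seen. Of the genes this rule gives, 2 are not reported here. Gene positions came from GENCODE M21, in which all 64 identifiers were found. Alternatives were UMIs per barcode, denominators without Alb, median-of-ratios scaling, mean per-barcode CPM, depth limits, other bins and rankings and other thinning; leaving out barcode sequences found in 2 libraries, and barcodes under 500 UMIs, were added after seeing the data. On data simulated at the real depths with counting error only, 20 of 20 genes changed 4-fold among 46 were recovered at each fasted time. The known shift in totals was corrected for there, and no spread between cells or libraries was simulated. That outcome therefore checks the arithmetic and says nothing of how sure the real ratios are. Python 3.11.15, numpy 2.4.6, scipy 1.17.1 and pandas 2.3.3 were used.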

Additional observations from a re-analysis of the deposited data

Results flagged for a closer look

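The ratio of Gpam to Dgat2 UMIs differed between the ends of the lobule in opposite directions in 2 libraries. On the log2 scale, the value at the pericentral end minus that at the periportal end was -0.105 (-0.20 to -0.0070) at 8 h and 0.210 (0.14 to 0.28) at 24 h. Whether these 2 values differ was not tested, with 1 library per time point. At 8 h the value was -0.0081 among barcodes with 200 or more UMIs and -0.020 when barcodes were ranked after thinning to 200 UMIs, so it does not hold there. At 24 h these values were 0.210 and 0.096, and with 3 or 10 bins it was 0.18 or 0.15.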

How the results depend on the processing

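Gpam and Dgat2 were lower than at 0 h in all 4 fasted libraries under every scaling, barcode filter and averaging tried, while the direction along the lobule turned with the denominator. All values here are log2 ratios, given in the order of time, and the cause of a shift was not tested unless its construction shows it. With UMIs per barcode, which follows depth, the ratios to 0 h were -3.33, -2.25, -1.74 and -2.08 for Gpam and -2.48, -1.72, -0.68 and -1.10 for Dgat2. Without Alb they were -1.56, -1.50 and -1.84 for Gpam at 8, 16 and 24 h and -0.71, -0.97, -0.79 and -1.17 for Dgat2. Median-of-ratios scaling gave -1.71, -1.46 and -1.83 for Gpam and -0.86, -0.93 and -0.78 for Dgat2 at 8, 16 and 24 h. Without the 5% of barcodes with most UMIs, Gpam stood at -1.62, -1.53, -1.92 and -2.15, and the change of Gpam to Dgat2 at 24 h was -1.02. The mean of per-barcode CPM gave -1.51, -1.89 and -2.15 for Gpam at 16, 24 and 30 h and -0.68, -1.01 and -0.88 for Dgat2 at 8, 16 and 24 h. Barcodes with 200 or more UMIs gave -0.91 for Dgat2 at 8 h and -0.76 for the change of Gpam to Dgat2 there. Barcodes with 500 or more UMIs gave -1.69 and -1.60 for Gpam and -0.92 and -1.09 for Dgat2 at 8 and 16 h, and -0.77 for the change of Gpam to Dgat2 at 8 h.

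For the ratio of the pericentral to the periportal end at 0, 8, 16, 24 and 30 h, leaving Alb out gave -0.028, -0.18, 0.0053, -0.0052 and -0.27 for Gpam and -0.042, -0.076, -0.021, -0.21 and -0.27 for Dgat2. UMIs per barcode gave -0.026, -0.24, 0.32, 0.29 and 0.049 for Gpam and -0.039, -0.14, 0.29, 0.084 and 0.052 for Dgat2. Without Alb, Cyp2e1 and Cyp2f2 the values were 0.12, -0.047, 0.26, 0.35 and 0.22 for Gpam and 0.11, 0.058, 0.24, 0.14 and 0.22 for Dgat2. In CPM, every other choice of bins, barcodes or ranking kept the direction. With 3 bins Gpam stood at 0.54, 0.82, 0.93 and 0.55 at 0, 16, 24 and 30 h and Dgat2 at 0.51, 0.69, 0.81, 0.75 and 0.56. With 10 bins Gpam stood at 0.87 at 0 h and Dgat2 at 0.89, 1.11, 0.93 and 0.86 at 0, 16, 24 and 30 h. Among barcodes with 500 or more UMIs Gpam stood at 0.71, 0.85 and 0.89 and Dgat2 at 0.63, 0.70 and 0.78 at 0, 8 and 16 h. Ranking after thinning gave 0.67 and 0.92 for Gpam at 0 and 24 h, and 0.60, 0.90 and 0.66 for Dgat2 at 0, 16 and 30 h. Adding Glul and Hsd17b13 to the ranking gave 0.78 for Dgat2 at 0 h. The other 85 alternatives of these 22 values stayed within counting error. Depth limits Gpat2 most, and the 8 h library, where bins 3 and 4 have medians of 121 and 118 UMIs per barcode. No paired analysis was possible because each time point has 1 library and the result comes from no test.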

Other observations

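Depth within a library moved the CPM of Dgat2 more than that of Gpam at 0 h. With fed barcodes cut into 3 equal groups by depth, from the shallowest to the deepest, Dgat2 stood at 11185, 10018 and 9128 CPM and Gpam at 7638, 7340 and 7469. Without Alb, whose share was 65.0%, 69.1% and 71.1% in those groups, Dgat2 stood at 31969, 32374 and 31552 and Gpam at 21832, 23719 and 25820, so the gene that differed with depth depended on the denominator. At 8 h, Dgat2 without Alb stood at 22930 in the shallowest group, 19418 in the middle and 18784 in the deepest, while Gpam stood at 7326, 7902 and 8582. In both libraries Gpam was thus higher relative to Dgat2 in deeper barcodes, whatever the denominator. The deepest group also stood above the shallowest in this at 16 h and 30 h, but not at 24 h. There, without Alb, Gpam stood at 6748 and 6857 and Dgat2 at 18331 and 18943 in the shallowest and deepest groups.

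Lipid synthesis genes and their regulators did not move as 1 block over fed barcodes grouped by Gpam. From barcodes with 0 Gpam UMIs of 200 to those with 6 or more, Scd1 went from 236525 to 309256 per 1000000 of panel UMIs without Alb and Gpam and Acly from 66657 to 82568. Srebf1 went from 16124 to 12379 and Mlxipl from 6980 to 5768, and Acaca from 10898 to 9980. Cyp2e1 also differed between these groups, from 28658 to 71317. Within bins 1 to 4, Acaca went slightly the other way, from 11363 to 11653. Srebf1 there went from 16742.5 to 13915, Mlxipl from 7032 to 5770, Scd1 from 239078 to 322228 and Acly from 69947 to 89657. These levels were looked at after the grouping had been made, and are given as values.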
